A study of Mus musculus with 2 samples.

Results

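The genes described here are 7 transcription and chromatin factors of naive and stem-like T cells, Tcf7, Lef1, Bach2, Satb1, Klf2, Foxp1 and Bcl11b, out of 33696 genes in the deposited matrices. They were listed by name and not by a rule on their values, but with earlier results of these data known. Counts of these factors beside shares of all genes are therefore descriptive and no independent support. Their UMIs (unique molecular identifiers, each standing for 1 captured RNA molecule) were followed in T, natural killer (NK) and B cells of the mouse lung. Of the 2 single-cell libraries, 1 came from an adult GFI1 KO mouse (mouse 1, a germline knockout of the transcriptional repressor GFI1) and 1 from an adult GFI1 WT mouse (mouse 1). In both cases the lung was dissociated, live cells were sorted, and 3′ libraries were made on the 10x Genomics platform with 18 antibody tags. With 1 library per genotype, a difference between genotypes cannot be told apart from a difference between mice, sorts or libraries, so no test or p-value is given. All intervals are exact 95% intervals that cover counting error only.

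T cells that have not met antigen keep a common set of regulators. Tcf7 (encoding TCF1) and Lef1 bind the same DNA motif and hold open the genes of the naive and memory state. Bach2 represses effector genes, Satb1 organises chromatin loops, Klf2 drives the genes for lymph node entry and egress, Foxp1 keeps naive cells quiescent, and Bcl11b commits precursors to the T lineage and preserves T cell identity. Most of these factors are turned down as T cells become effectors, and several are also used by NK or B cells.

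Cells were classed by their own RNA. Cd3-positive cells, with at least 2 UMIs over Cd3d, Cd3e and Cd3g, numbered 845 in the library labelled GFI1 KO (the KO library below) and 2898 in the library labelled WT (the WT library). The Cd4 subset had a Cd4 UMI without Cd8a, Cd8b1 or Trdc and held 115 KO and 657 WT cells, the Cd8 subset held 425 and 1345 cells, and the Trdc subset, with a UMI of the γδ T cell receptor constant gene, held 89 and 114 cells. NK cells (at least 2 UMIs over Ncr1 and Klrb1c) numbered 236 and 1946, and B cells (at least 3 UMIs over a list of B cell genes that included Cd79a, Cd79b and Ms4a1) 897 and 2564. The tags bore the labels out: the median CD4 tag count was 314 and 204 UMIs in the Cd4 subset and at most 1 in the Cd8 subset, and the median CD8a tag count was 456 and 368 UMIs in the Cd8 subset and at most 3 in the Cd4 subset. The remaining 216 KO and 782 WT Cd3-positive cells belonged to no subset, 189 and 679 of them because they lacked all 4 subset genes. Levels are given as CPM, UMIs of the gene per 1000000 UMIs of the class, without ribosomal, mitochondrial and Gm genes.

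Several whole-library values move with the comparison. The libraries held 10700 and 19515 called cells with medians of 10970 and 6166 UMIs, but the T cell subsets were closer in depth, with medians of 6051 to 7923 UMIs in the KO library and 6348 to 6793 in the WT library. The 10 markers of other cells (B cell, myeloid, endothelial and epithelial) summed to 3677 to 4656 CPM in the KO T cell subsets and 2710 to 3325 CPM in the WT subsets. In NK cells they summed to 2913 and 453 CPM, and in B cells the 7 markers that are not B cell genes summed to 4031 and 570 CPM, with 5 of the 7 at least 1.5-fold higher in the KO library. Without Lyz2, the lysozyme gene of myeloid cells, the sums were 1531 against 1876 CPM in the Cd4, 1144 against 1592 in the Cd8 and 1709 against 1866 in the Trdc subset, but 568 against 173 CPM in NK cells and 1158 against 193 CPM in B cells. Cldn5, an endothelial gene, had no UMI in the KO Cd4 and Trdc subsets. The part of these RNAs in the values below was not tested. The libraries shared 74 cell barcodes, and leaving those cells out changed no count of lower factors in any class. Gfi1 RNA itself was at 28.5 against 5.19 CPM in the KO and WT Cd4 subset, 13.1 against 10.2 in the Cd8 subset and 12.8 against 19.3 in the Trdc subset, the last from only 7 and 14 UMIs. A knockout allele may still be transcribed and the files hold no exon counts, so the labels could not be checked by this gene.

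All 7 factors had lower point values in the KO library in both the Cd4 and the Cd8 subset as defined by RNA, and 6 of 7 in the Trdc subset. With the Cd4 subset taken by antibody tags, Klf2 was not lower, at a KO/WT ratio of 1.01 (0.960 to 1.07). The other factors stayed below 1 there. Counting a factor as lower at a KO/WT ratio of 1/1.5 or less, 4 of 7 were lower in the Cd4 subset, where 18.3% of 10052 genes with at least 30 UMIs were lower by the same rule. In the Cd8 subset 3 of 7 were lower, against 13.6% of 11089 genes, and in the Trdc subset 5 of 7, against 22.1% of 6752 genes. In NK cells 3 of 7 were lower, against 18.7% of 10310 genes. None of the 5 factors with at least 30 UMIs was lower in B cells, where 7.52% of 10763 genes were. No factor was 1.5-fold higher in any of these classes, where 9.80%, 8.60%, 19.0%, 18.7% and 8.98% of genes were, in the same order. The median ratio of the factors was 0.556 in the Cd4 subset, 0.728 in the Cd8 subset and 0.391 in the Trdc subset, beside medians of 0.958, 0.968 and 0.991 over all genes tested.

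**Figure D1:**
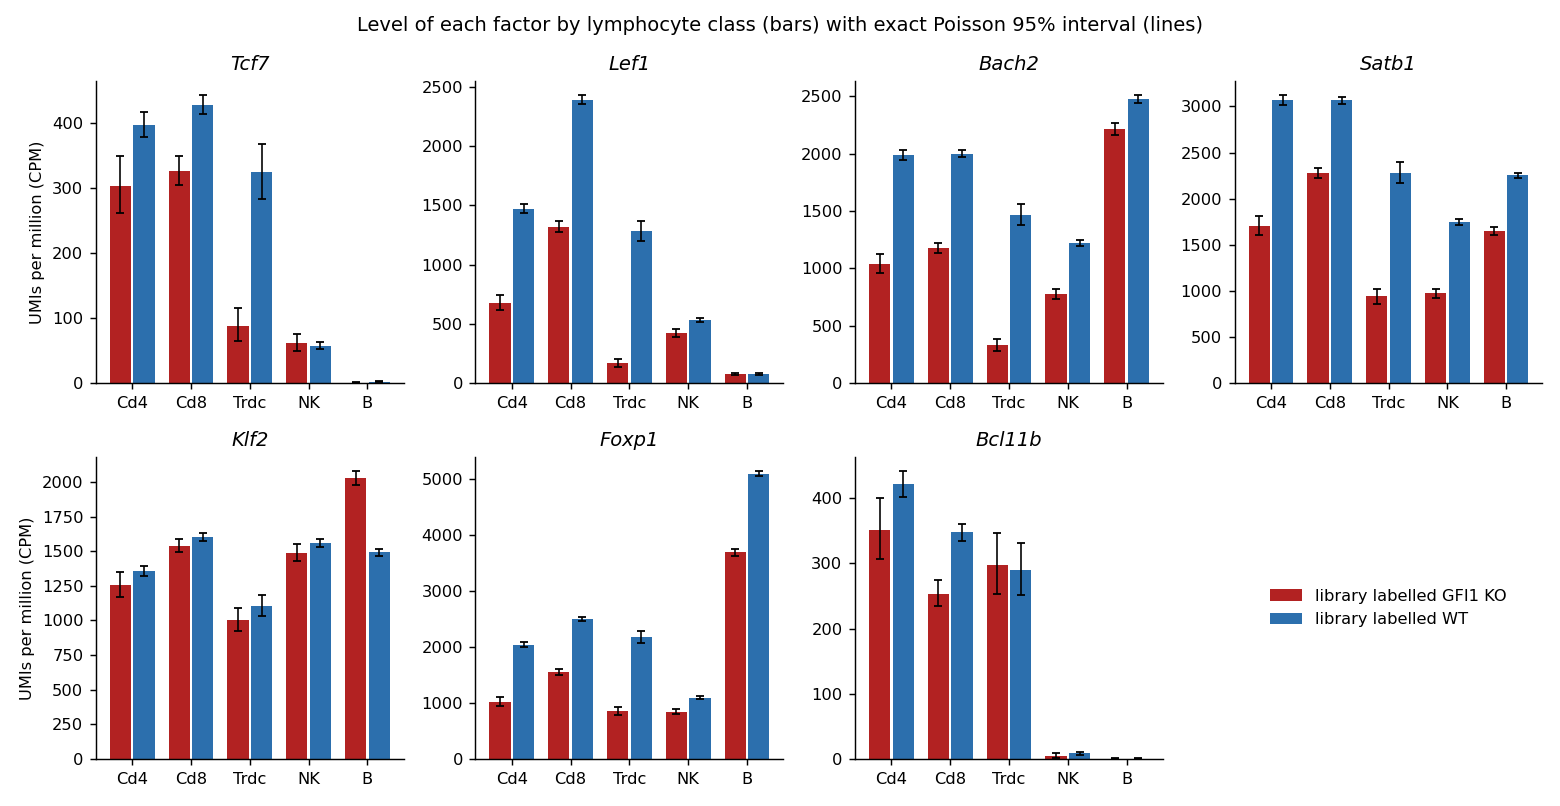
Level of each of the 7 factors in CPM (y axis, starting at 0 and scaled per gene) in 5 lymphocyte classes (x axis) of the library labelled GFI1 KO (red) and WT (blue), with exact Poisson 95% intervals as lines. Lef1 and Bach2 are lower in the KO library in all 3 T cell subsets, with Lef1 at 170 against 1282 CPM in the Trdc subset, while Klf2 is near equal in T and NK cells and higher in KO B cells.

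The upstream sequences of 3 factors are shown because they stand for the 3 patterns that follow: Lef1, lower in each T cell subset, Satb1, lower in the Cd4 and Trdc subsets and in NK cells, and Klf2, lower in no class. All 7 factors had entries in the RefSeq promoter table of build GRCm38.p6, which is not the build of the deposited matrices. Each window runs from 250 to 51 bases before the most upstream start, 5′ to 3′ on the gene's strand, and capitals mark the TCF/LEF core CTTTG or its complement CAAAG and the GFI1 core AATC or its complement GATT. The Lef1 window is chr3:131110047-131110246 on the plus strand, that of Satb1 is chr17:51833341-51833540 on the minus strand, and that of Klf2 is chr8:72318812-72319011 on the plus strand.
Lef1: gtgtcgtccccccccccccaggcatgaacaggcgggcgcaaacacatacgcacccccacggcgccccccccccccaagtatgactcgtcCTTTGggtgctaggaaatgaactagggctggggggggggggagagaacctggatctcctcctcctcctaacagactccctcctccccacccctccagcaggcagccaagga
Satb1: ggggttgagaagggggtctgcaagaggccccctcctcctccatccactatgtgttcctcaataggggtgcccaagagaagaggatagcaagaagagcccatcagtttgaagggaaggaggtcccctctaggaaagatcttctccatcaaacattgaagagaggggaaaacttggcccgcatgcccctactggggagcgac
Klf2: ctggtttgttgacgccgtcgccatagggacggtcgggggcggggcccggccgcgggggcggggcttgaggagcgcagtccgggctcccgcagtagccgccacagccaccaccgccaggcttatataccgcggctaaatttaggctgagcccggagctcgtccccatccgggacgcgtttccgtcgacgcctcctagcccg
Lef1 held 1 TCF/LEF core and the other two windows none, and no window held the GFI1 core. Of 32817 such windows in the table, 42.3% held the TCF/LEF core and 62.5% the GFI1 core on either strand. The motifs do not overlap in these windows, and a match in so short a stretch is a description of the letters only.

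Lef1 had the lowest KO/WT ratio of the 7 in each of the 3 T cell subsets as defined by RNA, whereas with the Cd4 subset taken by antibody tags (219 and 1177 cells) Foxp1 was lowest at 0.548 (0.517 to 0.581) and Lef1 was at 0.561 (0.524 to 0.601). In the Trdc subset it was at 170 CPM (137 to 208) in the KO library and 1282 CPM (1201 to 1367) in the WT library, a ratio of 0.132 (0.106 to 0.164). In the Cd4 subset its level was 677 CPM (615 to 744) against 1472 CPM (1435 to 1509), a ratio of 0.460 (0.416 to 0.508). The Cd8 subset had the highest Lef1 level of the 5 classes in both libraries, 1319 CPM (1274 to 1364) against 2390 CPM (2355 to 2425), and a ratio of 0.552 (0.532 to 0.573). The KO and WT intervals were apart in each of the 3 T cell subsets. In NK cells the difference was smaller, at 421 against 529 CPM and a ratio of 0.795 (0.730 to 0.865). The share of NK cells with a Lef1 UMI was not lower with each cell thinned to 1500 UMIs. It was 47.6% (41.0 to 54.3) in the KO and 45.0% (42.8 to 47.2) in the WT library, and the intervals overlap. B cells had 79.0 and 77.5 CPM of Lef1, a ratio of 1.02 (0.881 to 1.18).

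Tcf7, the partner of Lef1 at the same motif, was lower by less than 1.5-fold in the αβ subsets and by more in the Trdc subset. Its level was 304 CPM (262 to 350) in the KO and 398 CPM (379 to 417) in the WT Cd4 subset, a ratio of 0.764 (0.655 to 0.888). The Cd8 subset gave nearly the same ratio, 0.763 (0.706 to 0.824), from 327 and 428 CPM. In the Trdc subset Tcf7 was at 87.5 CPM (64.5 to 116) against 324 CPM (284 to 368), a ratio of 0.270 (0.194 to 0.370). In the WT library the 3 T cell subsets thus lay between 324 and 428 CPM, whereas in the KO library the Trdc subset stood apart from the other two. NK cells held little Tcf7 in either library, 62.0 and 57.2 CPM, with a ratio of 1.08 (0.856 to 1.36), and a log2 ratio of 0.12 that became 0.75 with each cell thinned to 1500 UMIs. B cells had 2 and 24 Tcf7 UMIs, which is below the minimum of 30.

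Bach2, the repressor of effector genes, was lower in all T cell subsets and in NK cells. Its level was 1041 CPM (963 to 1124) against 1990 CPM (1948 to 2033) in the Cd4 subset, a ratio of 0.523 (0.482 to 0.566). In the Cd8 subset it was 1177 against 1999 CPM, a ratio of 0.589 (0.566 to 0.612). In the Trdc subset it was 330 against 1467 CPM, a ratio of 0.225 (0.191 to 0.264). The WT Cd4 and Cd8 subsets therefore had overlapping Bach2 levels, and each KO subset lay below its WT counterpart. NK cells had 774 and 1222 CPM, a ratio of 0.634 (0.595 to 0.673). B cells, in which BACH2 also restrains plasma cell differentiation, had the highest level in both libraries, 2215 against 2474 CPM, and a ratio of 0.895 (0.872 to 0.919).

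Satb1, the chromatin organiser, was at 1705 CPM (1605 to 1810) in the KO and 3066 CPM (3013 to 3119) in the WT Cd4 subset, a ratio of 0.556 (0.522 to 0.592). In the Trdc subset it was at 941 against 2280 CPM, a ratio of 0.413 (0.373 to 0.456). The WT Cd8 subset matched the WT Cd4 subset at 3065 CPM, but the KO value of 2277 CPM gave a ratio of 0.743 (0.722 to 0.765), short of 1.5-fold. Satb1 was also lower in NK cells, 972 against 1747 CPM, a ratio of 0.557 (0.527 to 0.588). In B cells it was at 1652 against 2252 CPM, a ratio of 0.734 (0.712 to 0.756).

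Foxp1, the quiescence factor, had a level of 1022 CPM (945 to 1104) in KO and 2045 CPM (2002 to 2088) in WT cells of the Cd4 subset, a ratio of 0.500 (0.461 to 0.541). The Cd8 subset had 1550 against 2503 CPM, a ratio of 0.619 (0.598 to 0.641), and the Trdc subset 852 against 2178 CPM, a ratio of 0.391 (0.352 to 0.434). Lower point values extended to NK cells, with a ratio of 0.769 (0.724 to 0.816), and to B cells, which had the highest Foxp1 level, 3691 against 5099 CPM, and a ratio of 0.724 (0.710 to 0.738). Foxp1 was thus lower in the KO library in all 5 classes with intervals below 1, as were Satb1 and Bach2. Foxp1 itself was past 1.5-fold in the 3 T cell subsets.

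Klf2, the gene of lymph node homing and egress, stayed close to equal in T and NK cells. Its levels were 1259 against 1354 CPM in the Cd4 subset, a ratio of 0.930 (0.862 to 1.00), 1540 against 1605 CPM in the Cd8 subset, 0.960 (0.925 to 0.995), and 1005 against 1107 CPM in the Trdc subset, 0.908 (0.813 to 1.01). NK cells had a ratio of 0.957 (0.914 to 1.00). B cells differed in the other direction, at 2029 CPM (1980 to 2079) in the KO and 1492 CPM (1468 to 1517) in the WT library, a ratio of 1.36 (1.32 to 1.40).

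Bcl11b, the T lineage commitment factor, was the only one of the 7 with a higher point value in the KO Trdc subset, 297 against 290 CPM, with a ratio of 1.03 (0.831 to 1.26) whose interval includes 1. Its log2 ratio there, 0.04, became -0.96 with the KO cells weighted to the WT makeup of the subset. Its ratio was 0.833 (0.722 to 0.959) in the Cd4 subset, from 351 and 421 CPM, and 0.728 (0.667 to 0.794) in the Cd8 subset, from 253 and 348 CPM. In NK cells Bcl11b had only 7 UMIs in the KO and 68 in the WT library, and although the ratio of 0.544 counts as lower, its interval runs from 0.211 to 1.18 and the direction turned when each cell was thinned to 1500 UMIs (log2 ratio 0.24). B cells had 0 and 2 UMIs, and the KO count of 0 allows a level of up to 1.14 CPM. Tcf7, Lef1 and Bcl11b were at most 1.83 CPM in alveolar macrophages of either library, which should lack them.

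**Figure D2:**
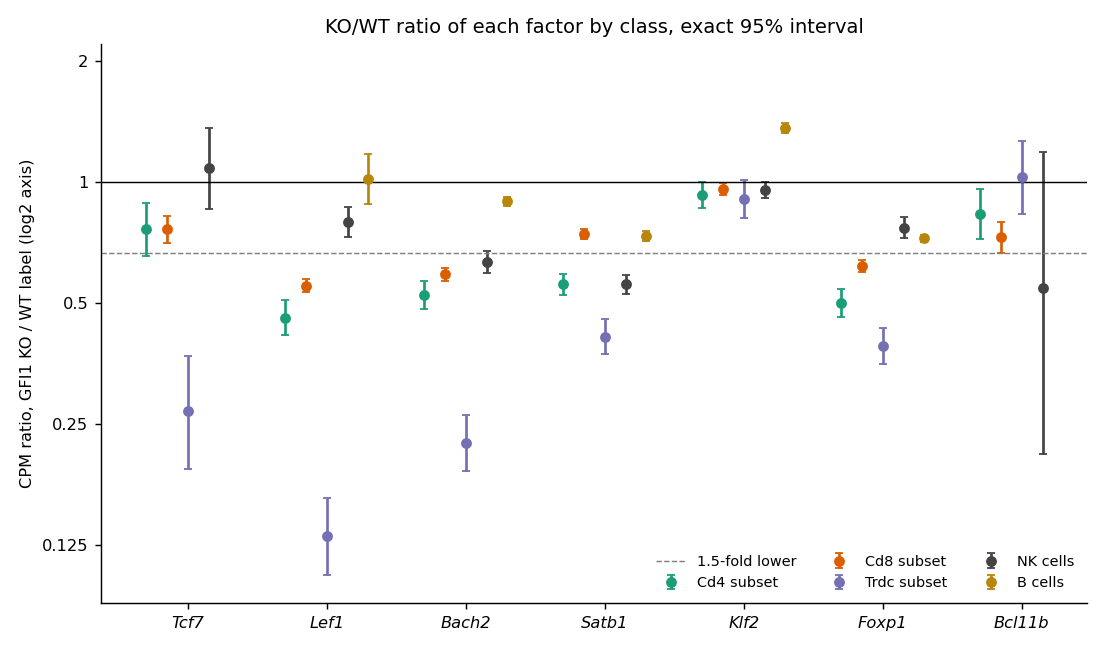
KO/WT ratio of CPM (log2 y axis) for each factor (x axis) in 5 lymphocyte classes (colours), with exact conditional binomial 95% intervals, for factors with at least 30 UMIs. The Trdc subset lies lowest for Lef1 (0.132), Bach2 (0.225), Tcf7 (0.270), Foxp1 (0.391) and Satb1 (0.413), and Klf2 in B cells (1.36) is the 1 point whose interval lies above 1.

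The share of cells with a UMI was compared after thinning each cell to 1500 UMIs, so that depth was equal; at most 30 cells per class and library were too shallow and were left out. Across 35 pairs of factor and class, the KO share lay below the WT share with intervals apart in 17, namely 4 in the Cd4, 6 in the Cd8 and 5 in the Trdc subset and 2 in NK cells. By the same rule 1.58% of genes with at least 30 UMIs were below in the Cd4, 5.04% in the Cd8 and 2.95% in the Trdc subset, 5.10% in NK cells and 4.84% in B cells, genes of every detection level included. The KO share lay above with intervals apart in 1 pair, Klf2 in B cells, at 85.4% (82.8 to 87.6) and 78.0% (76.3 to 79.6), where 6.02% of genes did. No factor lay above in the other classes, where 1.86% (Cd4 subset), 4.86% (Cd8 subset), 3.11% (Trdc subset) and 6.76% (NK cells) of genes did. Lef1 was detected in 13.5% (7.17 to 22.4) of 89 KO and 64.9% (55.4 to 73.6) of 114 WT cells of the Trdc subset, and without thinning in 34.8% and 79.8%. In the Cd4 subset the thinned Lef1 shares were 47.0% (37.6 to 56.5) of 115 cells and 76.1% (72.7 to 79.3) of 653 cells. Tcf7 was detected in 10.1% (4.73 to 18.3) and 49.1% (39.6 to 58.7) of the Trdc subset, but in 37.4% (28.5 to 46.9) and 49.9% (46.0 to 53.8) of the Cd4 subset, where the intervals overlap. At 3000 UMIs the Tcf7 intervals of the Cd4 subset were apart, 51.7% (40.8 to 62.4) and 68.3% (64.2 to 72.1). In alveolar macrophages, with median depths of 13208 and 13462 UMIs before thinning, at most 0.211% of cells had a Lef1, Tcf7 or Bcl11b UMI at the same thinned depth.

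Within single cells of the Trdc subset the paired factors were rarely seen together in the KO library. Each alone was detected there in few cells, Tcf7 in 10.1% and Lef1 in 13.5%. Shares of cells with both or neither follow in part from the single shares, and pairing beyond those was not tested. A UMI of both Tcf7 and Lef1 was found in 3.37% (0.701 to 9.54) of KO and 37.7% (28.8 to 47.3) of WT cells, and a UMI of neither in 79.8% (69.9 to 87.5) and 23.7% (16.2 to 32.6). In the Cd4 subset 38.3% (29.4 to 47.8) of KO and 15.8% (13.1 to 18.8) of WT cells had neither, and in the Cd8 subset 19.9% (16.2 to 24.0) and 8.41% (6.98 to 10.0). The median number of the 7 factors detected was 3 against 5 per cell in the Trdc subset, 4 against 5 in the Cd4 subset and 5 against 6 in the Cd8 subset. It was 4 in both libraries in NK cells and in B cells.

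**Figure D3:**
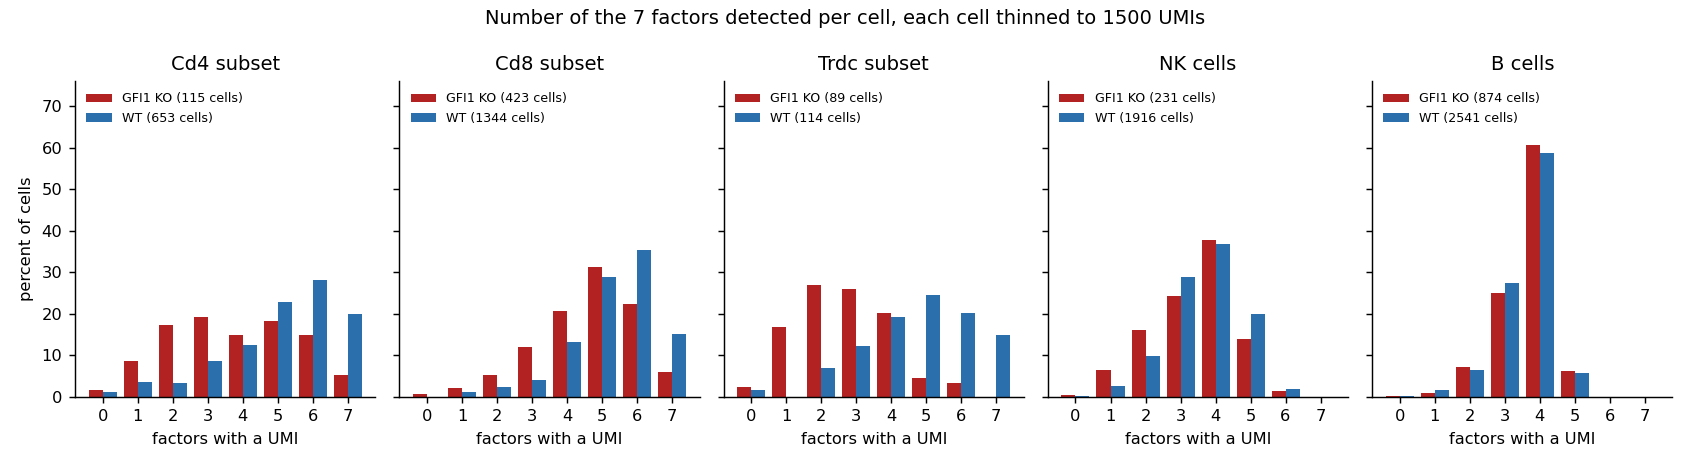
Percent of cells (y axis) by the number of the 7 factors with at least 1 UMI (x axis) after thinning each cell to 1500 UMIs, in the KO (red) and WT (blue) library. KO cells of the Trdc subset centre on 2 to 3 factors and WT cells on 5, while the B cell distributions nearly coincide with a median of 4 in both.

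Within the classes, cells were also split into strata by marker genes that are not among the 7 factors. Foxp3-positive Cd4 cells, the regulatory T cells, had a Bach2 ratio of 0.308 (0.201 to 0.456) and a Foxp1 ratio of 0.376 (0.278 to 0.500), from only 15 KO and 44 WT cells. In Itgam-positive NK cells, the more mature ones, Tcf7 was higher at 1.51 (1.12 to 2.02), whereas without Itgam it had a ratio of 0.689 (0.461 to 1.00). The Itgam-positive value came from 60 KO and 214 WT Tcf7 UMIs, in cells with median depths of 6385 and 4487 UMIs. Of 87 pairs of factor and stratum with at least 30 UMIs, 33 were lower by 1.5-fold and 2, this value among them, higher. No share over all genes within strata is given beside these counts. Satb1 was lower in NK cells with Itgam, 0.579 (0.542 to 0.618), and without it, 0.511 (0.462 to 0.564). Klf2 had a similar ratio in B cells with Fcer2a, the CD23 gene of follicular B cells, 1.36 (1.30 to 1.41), and without it, 1.35 (1.29 to 1.41). The strata took different shares of the T cell subsets in the libraries. With the KO strata weighted to the WT makeup, 2 of 7 factors were past 1.5-fold in the Cd4, 0 of 7 in the Cd8 and 5 of 7 in the Trdc subset. Without weighting, 4, 3 and 5 were. No share over all genes is given beside the weighted counts. The 5 of the Trdc subset were not the same factors, since Satb1 (log2 ratio -0.44) was no longer past 1.5-fold and Bcl11b (-0.96) was. In the Trdc subset the weighting also moved the log2 ratio of Tcf7 from -1.89 to -0.78 and that of Bach2 from -2.15 to -1.44. That of Lef1 there stayed between -3.075 and -2.505 under the alternatives run. The makeup of all 3 T cell subsets therefore moves with their differences, and its part was not tested further.

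Genes that work with these factors were read from lists of named genes. Their counts are to be read against the shares of all genes given above, 18.3% lower and 9.80% higher in the Cd4, 13.6% and 8.60% in the Cd8 and 22.1% and 19.0% in the Trdc subset. Of 10 genes of naive cells and homing, 4 were lower in the Cd4 subset, 3 of 10 in the Cd8 subset and 7 of 9 with at least 30 UMIs in the Trdc subset, and none was higher. S1pr1, the egress receptor and a target of KLF2, was at 429 against 637 CPM in the Cd4 subset, 412 against 549 in the Cd8 subset and 122 against 399 in the Trdc subset, a Trdc ratio of 0.306 (0.231 to 0.401), although Klf2 itself was near equal. The Cd4 and Cd8 differences of S1pr1 were short of 1.5-fold. Actn1 had a ratio of 0.623 (0.488 to 0.785), 0.485 (0.431 to 0.545) and 0.0922 (0.0329 to 0.209) in the same order. Il7r, the survival receptor of resting T cells, was not lower by 1.5-fold in any of the 3, with ratios of 1.01, 1.13 and 0.895.

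Among 11 TCF/LEF cofactors and Wnt pathway genes, 1 of 9 with enough UMIs was lower in the Cd4, 3 of 10 in the Cd8 and 4 of 6 in the Trdc subset, so the Cd4 count was under the background. The 1 in the Cd4 subset was Pygo2, from 3 KO and 66 WT UMIs. Tle4, a corepressor that binds TCF1 and LEF1, had ratios of 0.681 (0.568 to 0.810), 0.613 (0.560 to 0.670) and 0.250 (0.183 to 0.336). The Cd4 difference of Tle4 was short of 1.5-fold. Tle5, a short member of the same family, was higher by 1.64 (1.39 to 1.93) in the Trdc subset, and Axin2, a Wnt target, by 1.87 (1.11 to 3.03) in the Cd4 subset. These were the only higher genes of the list there, 1 of 6 and 1 of 9, which is near the background. Of 15 other T cell factors, 3 of 14 were lower in the Cd4, 3 of 15 in the Cd8 and 8 of 15 in the Trdc subset, of which the Cd4 and Cd8 counts were near the background. Runx3 was higher at 1.54 in the Cd4 and Eomes at 1.52 (1.21 to 1.90) in the Cd8 subset, 1 of 14 and 1 of 15, also near the background. Myb and Id3 were lower in all 3, Myb at 42.7 against 68.6 CPM, 39.2 against 125 CPM and 20.1 against 170 CPM.

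Factors of effector cells lay on the other side in the T cell subsets. Of 10, 6 were higher in the Cd4 subset, 2 of 9 in the Cd8 subset and 7 of 10 in the Trdc subset, while 1, Tbx21 in the Trdc subset, was lower at 0.325 (0.171 to 0.579). In NK cells, by contrast, 4 of 9 were lower and 3 higher, where 18.7% of genes were in each direction. In B cells 3 of 9 were higher and 0 lower, where 8.98% and 7.52% of genes were. Of these, Tbx21 (16 KO and 25 WT UMIs) and Rora (17 and 23) rested on few UMIs. Maf was higher in all 3 T cell subsets at 3.16 (2.75 to 3.62), 1.78 (1.33 to 2.36) and 3.94 (3.11 to 5.03). It was also higher in NK cells at 1.948 (1.625 to 2.326) and in B cells at 1.564 (1.267 to 1.923). Rora, a nuclear receptor, was at 902 against 484 CPM in the Cd4 subset and 1762 against 577 CPM in the Trdc subset. In the Cd8 subset its ratio was 1.24 (1.12 to 1.37).

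Long genes were lower in the KO library in every class, and 3 of the 7 factors span 100 kb or more. The gene span was 347 kb for Bach2, 597 kb for Foxp1, 114 kb for Lef1, 97.1 kb for Satb1, 93.2 kb for Bcl11b, 30.6 kb for Tcf7 and 2.62 kb for Klf2. In the Cd8 subset the median ratio was 1.17 over genes under 10 kb and 0.711 over genes of 300 kb and more, and in the Trdc subset 1.27 and 0.681. Among genes of 100 kb and more, 29.4% were lower in the Cd4, 28.1% in the Cd8 and 40.2% in the Trdc subset, 35.4% in NK cells and 12.4% in B cells. The factors were also set against the median of genes of like span, a comparison chosen after seeing the data. By it, 3 of 7 factors were past 1.5-fold in the Cd4, 0 of 7 in the Cd8 and 5 of 7 in the Trdc subset. No share over all genes past 1.5-fold of that median is given beside these counts. Relative to that median Lef1 was at 0.552, 0.674 and 0.170 in the same order, and 12.6%, 15.7% and 2.82% of the genes of its span class lay lower. Bach2 was at 0.691, 0.828 and 0.331, with 26.2%, 36.8% and 14.6% of its span class lower. Foxp1 was at 0.660, 0.871 and 0.575, with 24.6%, 40.5% and 29.7% lower. Klf2 was at 0.826, 0.823 and 0.716, close to Bach2 and Foxp1 in the Cd8 subset. The values were 0.622, 0.832 and 0.459 for Satb1, 0.854, 0.854 and 0.300 for Tcf7, and 0.932, 0.816 and 1.14 for Bcl11b. In NK cells Foxp1 (1.098), Lef1 (1.046) and Tcf7 (1.271) lay above the median of genes of like span. Bach2 (0.904), Satb1 (0.653), Klf2 (0.743) and Bcl11b (0.638) lay below it there. In B cells Lef1 (1.170), Bach2 (1.113) and Klf2 (1.181) lay above that median. Satb1 (0.801) and Foxp1 lay below it in B cells, where 27.7% of the genes of the Foxp1 span class lay lower than Foxp1. The part of gene span in these differences was not tested.

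**Figure D4:**
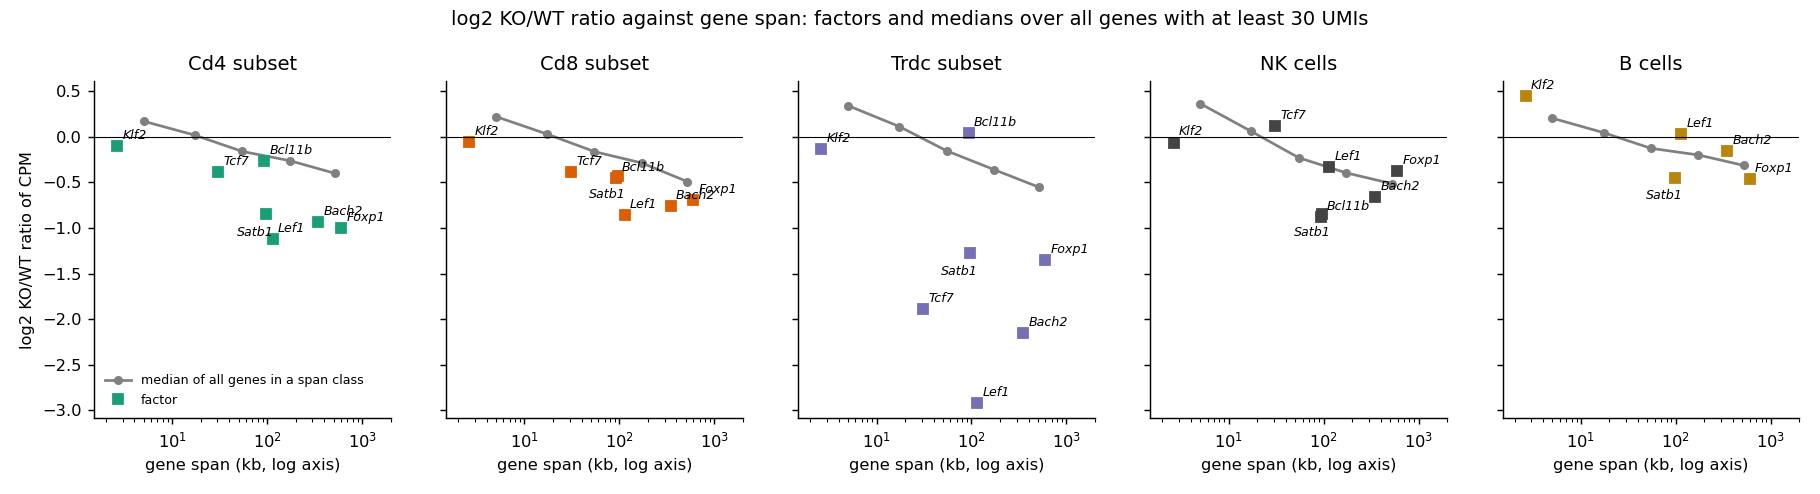
The log2 KO/WT ratio of CPM (y axis) against gene span in kb (log x axis) in 5 lymphocyte classes, with the factors as squares and the median over all genes with at least 30 UMIs in each span class as grey points and line. The median is lower at each longer span class, from 0.34 to -0.56 in the Trdc subset, where Lef1 (-2.92), Bach2 (-2.15) and Tcf7 (-1.89) lie well under the line.

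Across 22 points, the cell classes of both libraries, the factors whose levels, as log2(CPM + 10), were most alike were Tcf7 and Lef1 (Pearson r = 0.897), followed by Bach2 and Satb1 (0.883) and Satb1 and Lef1 (0.848). Klf2 and Bcl11b were least alike (0.251). Among 12784 genes compared, the closest to Tcf7 was Cd28 (0.965), to Lef1 Lck (0.934), to Bach2 Rsbn1l (0.934), to Satb1 Gpr174 (0.941), to Klf2 Ccdc174 (0.905), to Foxp1 Card6 (0.912) and to Bcl11b Camk4 (0.985). The points share libraries, depth and normalization, so these values describe the classes and are no test.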

How the data were processed

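The 2 libraries were 10x Genomics 3′ single-cell RNA libraries with antibody tags, 1 per genotype. The authors aligned and counted reads with Cell Ranger 9.0.1 per the labels, on GRCm39, and deposited raw UMI counts per gene or tag and cell. Whether intronic reads were counted is not given in the sources used here. Cells with at least 500 UMIs, 200 genes and at most 20% mitochondrial UMIs were kept, 10495 and 19342 in all. Doublets were called with Scrublet in scanpy 1.11.5 (346 and 1145 cells) and left in, with their removal as an alternative. UMIs were summed per library and class, over 24148 of 33696 genes, and scaled to CPM. Ratios have exact conditional binomial, levels exact Poisson and shares Clopper-Pearson 95% intervals. A gene with at least 30 UMIs over both libraries was called lower or higher at 1.5-fold. Gene spans came from the annotation of another build by Ensembl ID. All 7 factors are named in each class, and list genes past 1.5-fold may be named. Genes named for other values (Il7r, and Rora in the Cd8 subset) were chosen after their values were seen. S1pr1 in the Cd4 and Cd8 subsets and Tle4 in the Cd4 subset are also given with differences short of 1.5-fold. The members and lists were chosen with earlier results of these data known. The interval method was tested only on simulated Poisson counts summed per class. These hold no spread between cells, so that test cannot show how the intervals behave with such spread. Some marker genes and the strata they define are not reported here.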

Additional observations from a re-analysis of the deposited data

Results flagged for a closer look

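Klf2 had a KO/WT ratio of 0.960 (0.925 to 0.995) in the Cd8 subset and 1.36 (1.32 to 1.40) in B cells, so the libraries differed in opposite directions in the 2 classes. With 1 library per genotype the difference between classes was not tested.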

How the results depend on the processing

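No paired analysis was possible because each group has 1 library, and for the same reason no replicate could be left out. The count of lower factors in the Cd4 subset, 4 of 7, was 2 with the KO strata weighted to the WT makeup and 2 at 2-fold. In the Cd8 subset the 3 of 7 became 0 with that weighting, 0 relative to genes of like span (chosen after seeing the data) and 0 at 2-fold. In NK cells the 3 of 7 became 1 with each cell thinned to 1500 UMIs, 1 by the mean of per-cell CPM, 1 without cycling cells and 0 at 2-fold. No share over all genes is given beside the counts under these alternatives. The counts of 5 in the Trdc subset and 0 in B cells did not change under the alternatives run, but with the weighting Satb1 left and Bcl11b joined the 5. The log2 ratio of Bcl11b in NK cells reversed from -0.88 to 0.24 with thinning, where the KO library had 7 UMIs before thinning; the cause was not tested. Thinning also moved Tcf7 from -1.89 to -2.57 in the Trdc subset and from 0.12 to 0.75 in NK cells, and in the Trdc subset the weighting moved Tcf7 to -0.78, Bach2 from -2.15 to -1.44, Satb1 from -1.28 to -0.44 and Bcl11b from 0.04 to -0.96. It also moved Klf2 in the Cd8 subset from -0.06 to 0.20. Lower shares with intervals apart numbered 17 at 1500 and 16 at 3000 UMIs. No alternative was run for the counts within strata. The 89 KO cells of the Trdc subset limit the values there.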
